A study of Homo sapiens with 4 samples.

Results

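The endoplasmic reticulum (ER) chaperones and unfolded protein response genes described here are 10 genes given by symbol: HSPA5, HSP90B1, PDIA4, PDIA6, CALR, XBP1, DNAJB9, HERPUD1, SDF2L1 and CRELD2. The choice was by name, with no threshold on a measured value, but it was made with earlier results of these data known. All 10 were found among the 61541 genes of the count table. The cells were MDA-MB-231, a human triple-negative breast cancer line long in culture, and RNA was sequenced as 2 control libraries from cells grown without added cadmium and 2 libraries from cadmium-resistant cells kept in 10 µM cadmium. The resistant cells were 1 line, passaged long term in cadmium sulfate, and the labels call the controls biological replicates but do not say that the cadmium libraries came from separate selections. P-values measure only the spread between these libraries, which for the cadmium pair may be technical. The 2 control libraries are called control 2 and control 3 after their column headings.

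The ER is where secreted and membrane proteins fold, and its lumen holds chaperones, disulfide isomerases and lectins that assist folding. When unfolded protein accumulates there, sensors in the ER membrane start the unfolded protein response, which raises the transcription of chaperones and of genes for the disposal of misfolded protein. IRE1 splices the messenger RNA of XBP1, ATF6 is cleaved to a transcription factor, and PERK slows translation and raises ATF4 and its target CHOP. Cadmium is a thiol-reactive metal, and acute exposure is known to disturb protein folding. The comparison asks where this system stood in cells adapted to the metal.

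The ER stress response element (ERSE) is the sequence through which ATF6 and XBP1 are known to act together with the CCAAT-binding factor NF-Y, and it is shown here because it links these genes. Promoter sequences were taken from RefSeq on GRCh38.p14, from 250 bases before to 50 bases after each start site, and all 10 genes had an entry. The element was searched on both strands as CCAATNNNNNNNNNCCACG, that is CCAAT and CCACG with 9 bases between. It was present in the promoters of 5 of the 10 genes and in 22 of 27305 promoters (0.0806%). The capitals mark CCAAT and CCACG, each site is written 5′ to 3′ on the strand where it reads this way, and HSP90B1 held 2 sites.
HSPA5: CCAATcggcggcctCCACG
HSP90B1, farther site: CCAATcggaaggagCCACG
HSP90B1, nearer site: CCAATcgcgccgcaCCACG
CALR: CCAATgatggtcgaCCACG
XBP1: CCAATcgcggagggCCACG
CRELD2: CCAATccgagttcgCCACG

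The shorter element ERSE-II, searched as ATTGGNCCACG, was present in HERPUD1 and SDF2L1 and in 15 of all promoters (0.0549%). The capitals mark ATTGG and CCACG. It shares the letters CCACG, and the CCAAT box on its other strand, with the ERSE.
HERPUD1: ATTGGgCCACG
SDF2L1: ATTGGtCCACG

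Counting the start site as 0, the ERSE of HSPA5 began at position -66 and that of XBP1 at -52, while the element of CALR lay farther away, from -225 to -207. No ERSE or ERSE-II was found in the windows of PDIA4, PDIA6 or DNAJB9. The window of PDIA6, chr2:10832436-10832735, lay inside the counted gene. The 5′ end of that gene, at 10837977 on the minus strand, was not covered by a window. The core of the unfolded protein response element, TGACGTGG, which XBP1 is known to bind, was in 217 promoters (0.795%) and in 0 of the 10 windows. Only exact matches were searched, so copies of an element that differ in a base were not counted. A match is a description of the letters in the window and not a measured binding site.

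The whole promoter of HSPA5, the classic ERSE-bearing gene, is at chr9:125241294-125241593 on the minus strand, with the exact ERSE match in capitals.
HSPA5 promoter: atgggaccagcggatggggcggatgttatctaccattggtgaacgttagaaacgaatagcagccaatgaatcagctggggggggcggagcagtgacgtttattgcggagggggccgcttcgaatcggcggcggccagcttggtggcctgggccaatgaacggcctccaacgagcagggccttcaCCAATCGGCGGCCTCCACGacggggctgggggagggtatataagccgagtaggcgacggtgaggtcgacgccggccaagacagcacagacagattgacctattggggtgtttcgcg

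The promoter of HERPUD1, the gene with the largest fitted increase of the 10, is at chr16:56931892-56932191 on the plus strand. Its second run of capitals is the ERSE-II, and the first, from -176 to -169, is an ATF4 element core on the other strand. That core was searched as TGATGNAA and was in 1003 promoters (3.67%), with HERPUD1 the only 1 of the 10 genes to hold it.
HERPUD1 promoter: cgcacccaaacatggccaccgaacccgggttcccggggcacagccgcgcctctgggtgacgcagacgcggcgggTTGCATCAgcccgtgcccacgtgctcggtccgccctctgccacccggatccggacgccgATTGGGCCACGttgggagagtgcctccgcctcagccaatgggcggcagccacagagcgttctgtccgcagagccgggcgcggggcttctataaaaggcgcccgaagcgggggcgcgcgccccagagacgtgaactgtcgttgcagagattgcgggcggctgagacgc

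The core of the metal response element, the sequence bound by the zinc- and cadmium-responsive factor MTF-1, was also searched on both strands. The study cites work in which MTF-1 activated by cadmium did not rely on this standard motif. Its form TGCACNC was in 11.9% of promoters and in CRELD2 among the 10 genes. Its form TGCGCNC was in 20% of promoters and in PDIA4, PDIA6 and CRELD2. The 10 windows held from 58.7% to 75% G and C against a median of 58.3% over all promoters.

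Total counts ran from 51934729 to 61916007 per library. MT2A, a metallothionein that binds cadmium, had 37771 and 20700.2 normalized counts in the controls and 112331 and 130956 in cadmium 1 and cadmium 2. The fitted log2 difference was 2.06 ± 0.36 (SE; DESeq2 adjusted p = 9.4e-06), and the edgeR test did not call it (unadjusted p = 0.0013, adjusted p = 0.588). Markers of this mesenchymal-like line were high in all libraries: VIM stood at 39062 to 51044 normalized counts, AXL at 88802 to 96793, and CD44 and ZEB1 between 4302 and 25973. Of the markers of luminal and epithelial cells, ESR1 and PGR were at 2.1 to 29.6, no read was counted for KRT5, and ERBB2 was at 4584 to 6773. EPCAM was at 2410 in control 2 against 662 to 774 in the others, and CDH1 at 615 in control 3 against 107 to 169. The leukocyte, endothelial and fibroblast markers also separated the controls, with PTPRC at 1.9 and 144, and PECAM1 at 160 and 842, in control 2 and control 3. Of the rest of that list, COL1A1 was at 501 to 930, VWF at 22.3 to 60.7, CD68 at 5.7 to 10.0 and DCN at 0 to 3.9. The controls thus stood apart from each other in genes that do not belong to the ER, and what this contributed to the results for the ER genes was not tested. In bulk RNA, fewer cells of a type and less RNA per cell cannot be told apart.

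None of the 10 ER genes passed the test between cadmium-resistant and control cells. In the DESeq2 fit across all genes, 0 of the 10 had an adjusted p below 0.1, while 225 of 19816 genes tested did (1.14%), 119 higher and 106 lower in cadmium. The lowest adjusted p among the 10 was 0.671, for HERPUD1. The fitted differences ran from -0.40 for PDIA4 to 0.63 for HERPUD1 on the log2 scale, 5 above 0 and 5 below, with standard errors of 0.24 to 0.39. Their median was -0.025, against -0.023 over all genes tested, and both turned positive, at 0.035 and 0.036, with upper-quartile size factors. The summed level of the 10 genes was 3445 and 3422 TPM (counts per length, scaled to the same total in each library and computed from the counts and the gene lengths in the table) in the controls and 3249 and 3002 TPM in the cadmium libraries.

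At an unadjusted p below 0.05, DESeq2 named 1 of the 10 genes, HERPUD1, where 6.92% of all genes tested passed. At the same threshold edgeR named 2, PDIA4 and HERPUD1, where 7.83% of genes passed, and its lowest adjusted p for any of the 10 was 0.622. The limma-voom test named the same 2, where 7.4% passed. For 4 of the 10, both cadmium libraries lay outside the range of the controls, HERPUD1 above it and PDIA4, CALR and CRELD2 below it. That is close to the 40.3% of all genes tested with this property. A p that misses the threshold does not show that levels were equal, but for 8 of the 10 genes the 95% interval excluded a 2-fold change in either direction. The exceptions were PDIA6 and HERPUD1, and over all 10 genes the intervals ran from 0.451-fold to 2.36-fold.

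**Figure D1:**
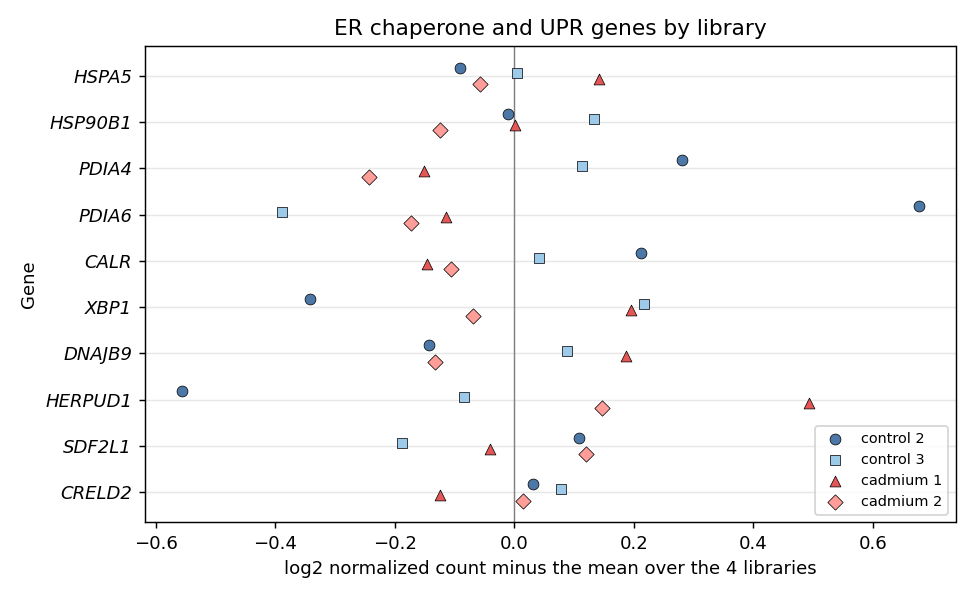
Each row is 1 of the 10 genes and each symbol 1 library, plotted as the log2 normalized count minus the mean of the 4 libraries for that gene. HERPUD1 has both cadmium libraries to the right of both controls and PDIA4, CALR and CRELD2 have them to the left, while the controls of PDIA6 lie 1.07 apart.

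HSPA5 encodes BiP, the HSP70 chaperone of the ER lumen and the partner that holds the stress sensors inactive. It is gene ENSG00000044574 at chr9:125234853-125241382 on hg38, minus strand. The controls had 46998 (control 2) and 50202 (control 3) normalized counts, and cadmium 1 and cadmium 2 had 55219.7 and 48115. The groups overlapped, with cadmium 2 between the controls. The means were 48600.2 ± 2266 in control and 51667 ± 5024 in cadmium (SD, n = 2 each), a fold of 1.06 with a 95% interval of 0.759 to 1.49.

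HSP90B1 encodes GRP94, the HSP90 chaperone of the ER, which folds integrins and Toll-like receptors. ENSG00000166598 lies at chr12:103930107-103953931, plus strand. Its 4 values were 37180.1 and 41047 in control 2 and control 3 and 37484 and 34334 in cadmium 1 and cadmium 2. Cadmium 1 fell inside the control range and cadmium 2 below it. The fold was 0.918 (95% interval 0.658 to 1.28). Of its exon bases, 7.95% overlap exons of other genes, mainly UQCC6 on the opposite strand, and the counting set such reads aside.

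DNAJB9 encodes ERdj4, a J-domain co-chaperone that works with BiP and restrains IRE1. The gene, ENSG00000128590, lies at chr7:108569867-108574850, plus strand. It was counted at 799.6 and 937.8 normalized reads in control 2 and control 3 and at 1005 and 805 in cadmium 1 and cadmium 2. Each group held 1 high and 1 low library, and the groups overlapped. The log2 fold change was 0.06 ± 0.30 (SE).

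SDF2L1 encodes a protein that works with the ER J-domain co-chaperones of BiP. ENSG00000128228 is at chr22:21642302-21644299, plus strand. The values were 1016 and 827 in control 2 and control 3 and 916 and 1024 in cadmium 1 and cadmium 2. Control 2 was close to cadmium 2 and the groups overlapped. The log2 fold change was 0.07 ± 0.29 (SE).

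PDIA4 encodes ERp72, a thioredoxin-fold isomerase that forms and rearranges disulfide bonds. ENSG00000155660 spans chr7:149003062-149028662, minus strand. It stood at 22291 and 19858 normalized counts in control 2 and control 3 and at 16524 and 15509 in cadmium 1 and cadmium 2. Both cadmium libraries were below both controls. The means were 21075 ± 1720 and 16016 ± 718 (SD, n = 2 each), a fold of 0.760 with a 95% interval of 0.544 to 1.06. Its adjusted p was 0.875 in DESeq2 and 0.622 in edgeR, while the unadjusted values were 0.107 and 0.0399. Without control 2 it was called lower (log2 fold change -0.31, DESeq2 adjusted p = 0.0634), and likewise without control 3 (-0.49).

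PDIA6 encodes P5, an isomerase that binds BiP and its clients. ENSG00000143870 is at chr2:10783391-10837977, minus strand. Control 2 held 14357 normalized counts and control 3 only 6859, and the cadmium libraries held 8292 and 7962. The cadmium libraries were close to each other and lay between the controls. The log2 fold change of -0.38 ± 0.39 (SE) rested on control 2: it was 0.24 without that library and -0.83 without control 3. Of its exon bases, 25.22% overlap ATP6V1C2 on the opposite strand, a gene with 25 to 69 counts per library.

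CALR encodes calreticulin, the calcium-binding lectin that retains glycoproteins until they fold. ENSG00000179218 is at chr19:12938578-12944489, plus strand. Its counts were the highest of the 10: 67251 and 59735 in control 2 and control 3 and 52475 and 53939 in cadmium 1 and cadmium 2. Both cadmium libraries were below both controls and close to each other. The fold was 0.838 (95% interval 0.602 to 1.17), with an unadjusted p of 0.294 in DESeq2 and 0.139 in edgeR.

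XBP1 encodes the transcription factor made after IRE1 splices its messenger RNA. ENSG00000100219 lies at chr22:28794555-28800597, minus strand. Its values were 3963 in control 2 and 5840 in control 3 against 5750 and 4787 in cadmium 1 and cadmium 2. Both cadmium libraries lay between the controls. The fitted log2 difference was 0.10 ± 0.31 (SE). Gene counts do not separate the spliced form of XBP1 from the unspliced form, so these values say nothing of IRE1 activity.

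HERPUD1 encodes an ER membrane protein of the degradation machinery that removes misfolded proteins. ENSG00000051108 is at chr16:56932142-56944864, plus strand. Control 2 and control 3 had 2161 and 2999.6 normalized counts, cadmium 1 and cadmium 2 had 4478 and 3522. Both cadmium libraries were above both controls, which themselves differed by 0.47 on the log2 scale. The means were 2580 ± 593 and 4000 ± 676 (SD, n = 2 each), a fold of 1.55 with a 95% interval of 1.02 to 2.36. The unadjusted p was 0.041 and the adjusted p 0.671 in DESeq2, and 0.0468 and 0.632 in edgeR. The log2 fold change lay between 0.41 and 0.88 when each library was left out in turn.

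CRELD2 encodes a secreted ER protein with disulfide-rich repeats that rises in ER stress. ENSG00000184164 is at chr22:49918167-49927540, plus strand. It had 1202 and 1241 normalized counts in control 2 and control 3 and 1078 and 1187 in cadmium 1 and cadmium 2. The cadmium libraries were both lower, cadmium 2 by only 0.02 on the log2 scale from control 2. The fold was 0.927 (95% interval 0.648 to 1.33).

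Libraries of 1 group differed by as much as the groups did for many of these genes. For 6 of the 10 genes the controls differed from each other by more than the fitted difference between groups. The log2 ratio of control 3 to control 2 was -1.07 for PDIA6, 0.56 for XBP1, 0.47 for HERPUD1 and -0.30 for SDF2L1, and its size was at most 0.23 for the rest. The cadmium libraries differed by 0.04 to 0.35, with cadmium 2 below cadmium 1 for 7 genes. With both of control 2 and control 3 in the fit 0 of the 10 genes were called. With 1 control left out, the spread comes from the cadmium pair alone and the lone control is assumed to vary like it. Only effect sizes are therefore given for those fits.

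**Figure D2:**
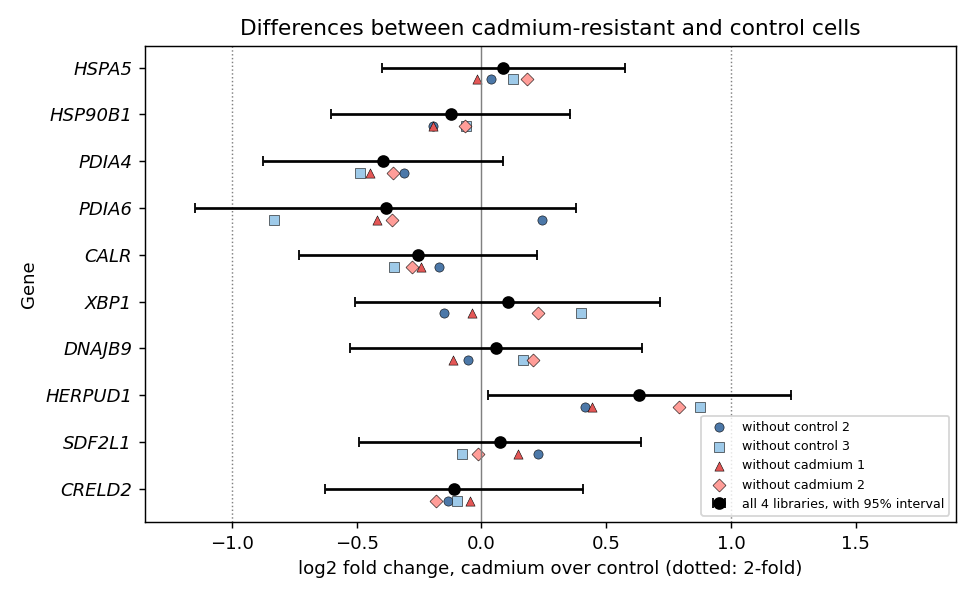
Black points give the log2 fold change of cadmium over control for each gene with its 95% interval, and coloured symbols below them the value without 1 library in turn. HERPUD1 stays above 0 and PDIA4, CALR, HSP90B1 and CRELD2 stay below it, while PDIA6 moves from -0.83 to 0.24.

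The level of each transcript relative to the others was compared per length, in TPM. CALR was the most abundant, with a mean of 1584 TPM over the 4 libraries (1456 to 1739), which placed it 49th among all genes. HSPA5 followed with 586 TPM (521 to 665) and PDIA4 with 428 TPM (356 to 490). With the lengths of the count table, these 3 chaperone and isomerase genes did not overlap in range with their neighbours in the order. HSP90B1 had 219 TPM (198 to 245), PDIA6 173 TPM (131 to 254) and XBP1 129 TPM (94.8 to 151). The ranges of HSP90B1 and PDIA6 overlapped, and so did those of PDIA6 and XBP1.

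The lower levels belonged to co-chaperone, degradation and secreted genes. SDF2L1 had 67.9 TPM (61.1 to 73.1), HERPUD1 49.9 TPM (30.9 to 69.5), DNAJB9 26.7 TPM (22.8 to 31.1) and CRELD2 17.4 TPM (16.4 to 18.8). HERPUD1 overlapped in range with both SDF2L1 above it and DNAJB9 below it. The order depends on the length assigned to a gene. HSP90B1 has 13092 exon bases in the count table against 2782 in its canonical transcript. With canonical lengths, a setting chosen after seeing the data, it stood 2nd with 574 TPM (523 to 641). Its range then overlapped that of HSPA5, which stood 3rd with 545 TPM (483 to 622). With the same lengths CRELD2 stood 9th with 35.0 TPM (33.3 to 37.8) and DNAJB9 was the lowest with 15.7 TPM (13.4 to 18.4).

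**Figure D3:**
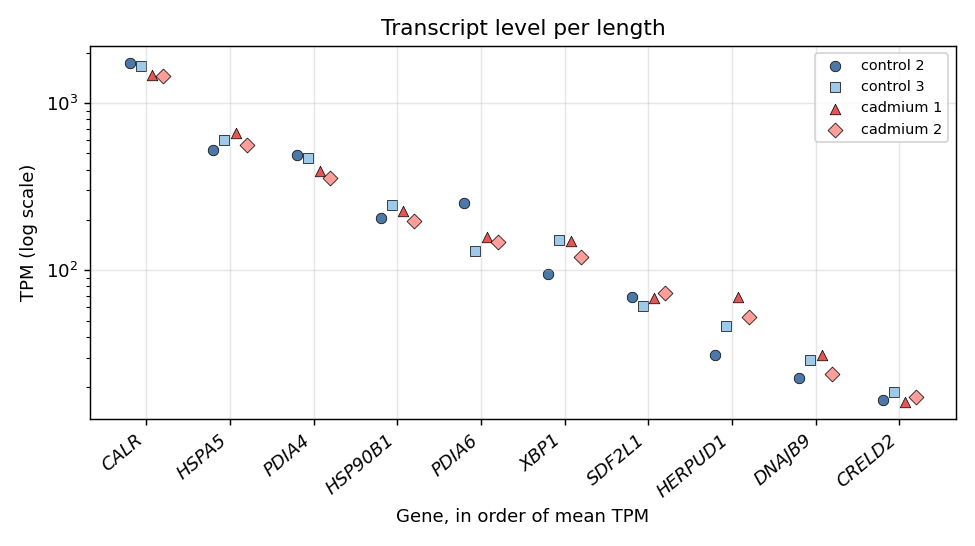
The level of each gene in TPM on a log axis, in order of the mean, with 1 symbol per library. With the lengths of the count table, CALR is the most abundant at 1456 to 1739 TPM and CRELD2 the least at 16.4 to 18.8 TPM, while with canonical lengths DNAJB9 is the least.

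The values of the genes were set beside those of the genes around them. For each of the 10 genes the median over its 40 nearest genes with a mean of at least 100 normalized counts was computed. The neighbours of PDIA4 had a median log2 fold change of -0.37, nearly that of PDIA4 itself, which differed from it by -0.03. For PDIA6 the neighbours were at -0.32, and at -0.69 in control 3 against control 2, where PDIA6 was at -1.07. The part of such regional differences in the values of PDIA4 and PDIA6 was not tested.

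HERPUD1 lay farthest from its neighbours. They had a median log2 fold change of -0.11 in cadmium against control, so that HERPUD1 lay 0.75 above them, and a median of -0.41 in control 3 against control 2, where HERPUD1 was at 0.47. CALR lay 0.21 below its neighbours and DNAJB9 0.29 above. For the other genes the difference from the neighbours was between -0.06 and 0.16.

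**Figure D4:**
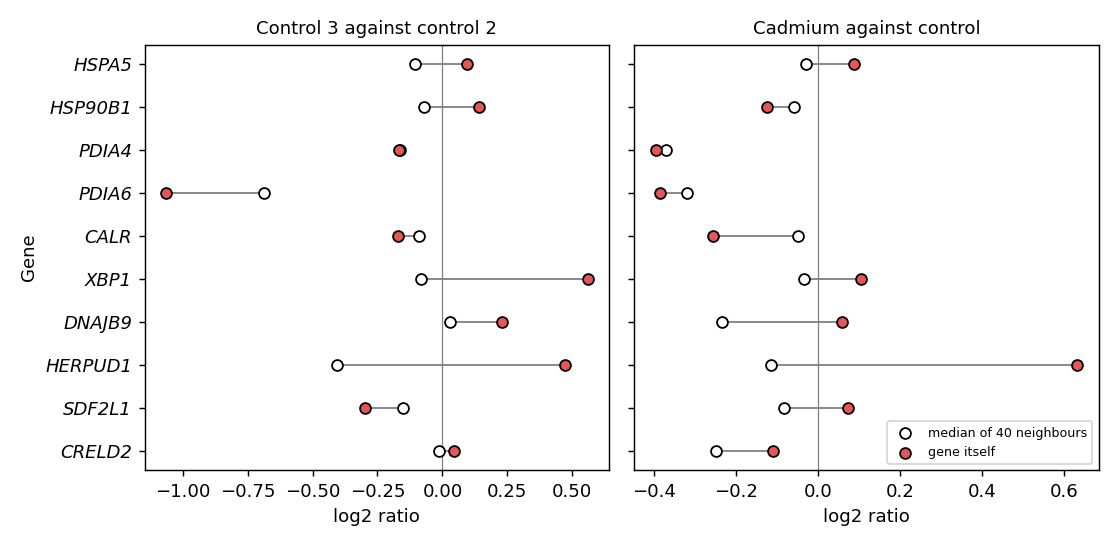
For each gene, the red point is its own log2 ratio and the open point the median of its 40 neighbours, with control 3 against control 2 on the left and cadmium against control on the right. PDIA4 sits on its neighbours at about -0.4 on the right, and HERPUD1 lies 0.75 above its own.

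Other genes that carry the promoter elements were set beside these. Leaving out the 10 genes, 30 genes had an ERSE or ERSE-II in the promoter and 18 of these were tested. None was called by DESeq2, and at an unadjusted p below 0.05 PLS3 was higher (0.61) and TMEM120A lower (-0.93), with a median log2 fold change of 0.04. Of 226 tested genes with the ATF4 element core, DESeq2 called 5 higher and 1 lower, where 1.14% of all genes tested were called, and edgeR and limma-voom called 0 genes of any kind. The median of these genes was 0.07 against -0.03 over all genes.

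The wider ER pathway was described with lists of 142 further genes, of which 141 were tested. None was called in DESeq2, and 6 were higher and 6 lower at an unadjusted p below 0.05, where 6.92% of all genes tested passed. Both cadmium libraries were above the control range for 26 and below it for 32, near the 40.3% of all genes tested with groups apart. Their median log2 fold change was -0.03, as over all genes tested. The highest and lowest gene of each list are given among those with a mean of at least 100 normalized counts. In the HSP70 and HSP90 machinery of the ER, 0 of 13 genes passed the test and the median was -0.11. CNPY3, a co-chaperone of HSP90B1 for Toll-like receptors, had the highest value (0.72, adjusted p = 0.227 in DESeq2), and CNPY4, of the same family, the lowest (-0.83). CNPY3 was counted at 5371 and 4610 in control 2 and control 3 and at 8496 and 7998 in cadmium 1 and cadmium 2, with the groups apart.

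Among protein disulfide isomerases and oxidoreductases, 0 of 20 passed and the median was -0.07. ERO1B, an oxidase that recharges isomerases, was highest at 0.43 and the selenoprotein SELENOM lowest at -0.83. The lectin chaperones and glycan-trimming enzymes had 0 of 13 called and a median of -0.25, with 11 of the 13 below 0. Among all genes tested with a mean of at least 10 normalized counts, 10009 of 18871 were below 0. Without control 2 the median of the lectin list was -0.06. EDEM3, a mannosidase, was at 0.19 and LMAN1, a cargo receptor for glycoproteins, at -0.58. In ER-associated degradation, 0 of 22 passed and the median was -0.09, from SELENOS at -0.63 to SEL1L, the scaffold of the HRD1 ligase, at 0.39. In the translocon and signal peptidase, 0 of 17 passed and the median was 0.04, from SEC61A2 at -0.65 to SPCS2 at 0.29. Secreted and accessory ER stress proteins had 0 of 16 called and a median of 0.06, from RCN3 at -0.75 to STC2 at 1.19. The cytosolic and mitochondrial counterparts had 0 of 12 called and a median of 0.00, from HSPE1 at -0.52 to HSP90AB1 at 0.18.

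The sign of several list medians turned when 1 library was left out. With control 2 left out the HSP70 and HSP90 machinery stood at 0.02, ER-associated degradation at 0.06 and the cytosolic and mitochondrial counterparts at 0.21. With control 3 left out the counterparts stood at -0.20, the accessory proteins at -0.06 and the translocon at -0.07, and with cadmium 2 left out the accessory proteins stood at -0.01. Single genes also rested on the controls. Leaving out control 3 put STC2 at 2.71, ERO1B at 0.96, EDEM3 at 0.51, SELENOS at -1.12, HSPE1 at -0.89 and SEL1L at 1.105.

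The sensors and their direct transducers had 0 of 13 called and a median of -0.02 (0.04 with upper-quartile factors), with 5 above 0 and 8 below. At an unadjusted p below 0.05 in DESeq2, 3 were lower, CREB3L2, CREB3L1 and EIF2AK3, and 0 higher. Over all genes tested 6.92% passed in either direction, and 769 of 19816 passed and were lower. CREB3L2, an ER-anchored transcription factor cleaved like ATF6, had 18469 and 10335 normalized counts in control 2 and control 3 and 6029 and 7204 in cadmium 1 and cadmium 2. The cadmium libraries were both below the controls, which differed from each other, and the log2 fold change was -1.12 ± 0.36 (SE; DESeq2 adjusted p = 0.128). It was -0.65 with control 2 left out and -1.49 with control 3 left out. The sensor genes themselves stood at 0.27 for ERN1, encoding IRE1, -0.59 for EIF2AK3, encoding PERK, and 0.02 for ATF6, and none was called. EIF2AK3, CREB3L1 and ATF6 fall outside the naming rule and were added with their values seen. CREB3L2, CNPY4 and TMEM120A lie on chromosome 7. There the median log2 fold change of the 40 neighbours was -0.37 for PDIA4 and -0.23 for DNAJB9. The part of regional differences in the values of CREB3L2, CNPY4 and TMEM120A was not tested.

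The targets of PERK, ATF4 and CHOP were the list with the highest median. None of the 16 was called, and 13 had a log2 fold change above 0. Among all genes tested with a mean of at least 10 normalized counts, 8862 of 18871 were above 0. The median was 0.42 (0.81 with control 3 left out, 0.22 with control 2 left out, 0.26 with cadmium 1 left out). At an unadjusted p below 0.05 in DESeq2, 4 passed, all of them higher. Over all genes tested 6.92% passed in either direction, and 603 of 19816 passed and were higher. The groups were apart for 8 of the 16, all 8 with cadmium above control. Over all genes tested 40.3% were apart in either direction, 4025 of 19816 with cadmium above control. The 4 genes were DDIT3 (CHOP, 0.96), SESN2 (0.94), TRIB3 (0.83) and PPP1R15A (0.78), named after their values were seen. At an unadjusted p below 0.05, edgeR named 3 genes, SESN2, TRIB3 and PPP1R15B, and neither DDIT3 nor PPP1R15A. Control 2 and control 3 had 404 and 951 normalized counts of DDIT3 and 13201 and 7457 of PPP1R15A. For DDIT3 and PPP1R15A the controls differed on the log2 scale by more than the fitted difference between groups. For SESN2 and TRIB3 they differed by less. CHAC1, which degrades glutathione, was highest at 2.01 ± 1.12 (SE; DESeq2 adjusted p = 0.793) and ATF3 lowest at -0.24. The counts of CHAC1 were 201 and 1119 in control 2 and control 3 and 3265 and 2035 in cadmium 1 and cadmium 2. On the log2 scale the controls differed by more than control 3 did from either cadmium library.

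**Figure D5:**
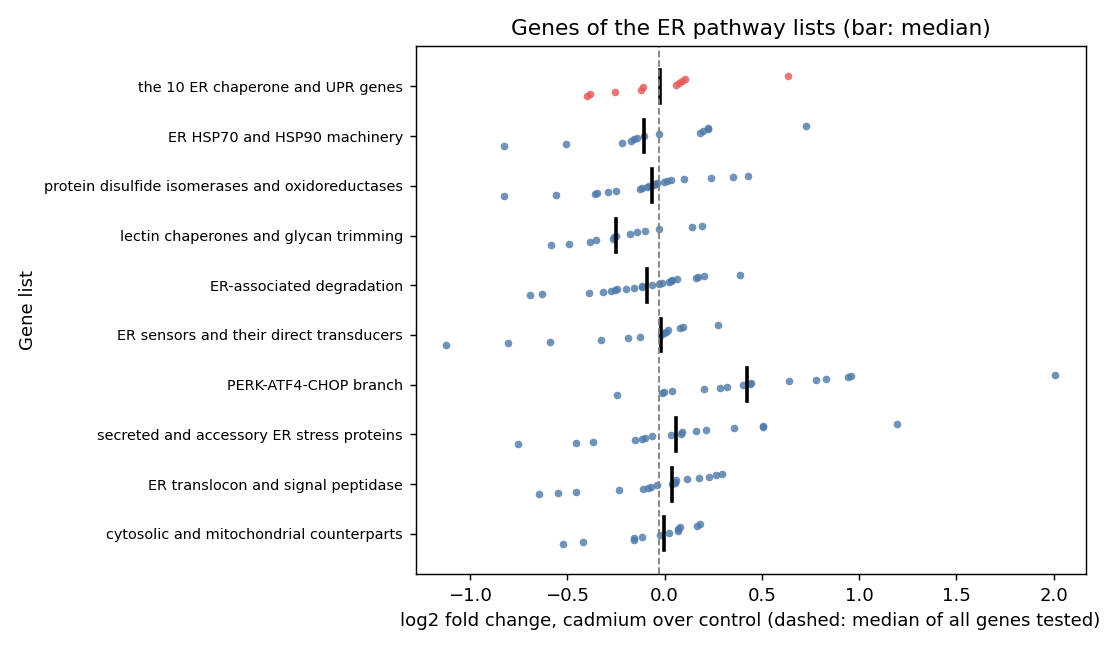
Each point is 1 gene of a list with a mean of at least 10 normalized counts, placed by its log2 fold change of cadmium over control, with a bar at the list's median and a dashed line at the median of all genes. The 10 ER chaperone and unfolded protein response genes have a median of -0.025 and the PERK, ATF4 and CHOP list one of 0.42.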

How the data were processed

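Paired-end RNA-seq libraries were made, 2 from control cells and 2 from cadmium-resistant cells. Adaptors were removed with bbduk, HISAT2 was used for alignment to hg38, and featureCounts 2.0.1 counted reads over Ensembl genes, as the methods of the study and the header of the table state. The deposited values are raw counts per gene, with each mate counted separately, strand ignored, and multi-mapping reads and reads on more than 1 gene left out. Counts therefore overstate fragments: among counts of 1 to 20, 70.6% to 71.5% were even. Pseudogenes and overlapping genes can take reads from a gene. Intervals and standard errors come from these libraries only. The file header gave each gene's length, deposited by the authors with the counts, from which TPM was computed here. The control columns carry the numbers 2 and 3 where the labels say 1 and 2, so they were used as controls without replicate numbers.

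All 4 libraries were fitted in R 4.3.3 by DESeq2 1.42.0 (group as the only term, two-sided Wald test, Benjamini-Hochberg adjustment over all genes kept by independent filtering, threshold 0.1). The study's methods name DESeq2, and the design and the threshold, the default of the tool, were set here. Size factors were 1.06, 0.94, 1.00 and 1.01, and the filter removed genes with a mean below 7.69 normalized counts. Symbols were matched for 61369 genes. Alternatives were edgeR 4.0.16 (quasi-likelihood), limma 3.58.1 (voom), size factors by TMM or by upper quartile, no independent filtering, at least 10 counts in 2 libraries, halved counts, a threshold of 0.05, subtraction of the neighbours' median, and leaving out each library. Canonical transcript lengths of GENCODE 44 were added after seeing the data. The fits were checked on simulated data. The members and lists were chosen with earlier results of these data known. Named genes were the 10 members, called genes of each list, the highest and lowest of each list with a mean of at least 100, the cell markers and MT2A. The binding and accessibility data were not used here.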

Additional observations from a re-analysis of the deposited data

How the results depend on the processing

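Of 130 values of the 10 ER genes under alternatives, 121 kept their sign. Of the 130, 90 came from settings that left out no library. Among these 90, the values without independent filtering equal the main fit by design. The values that changed sign came from leaving out 1 library, except CRELD2, which was at 0.14 with its neighbours' median subtracted. Over the libraries left out in turn, HSPA5 ran from -0.020 (without cadmium 1) to 0.18, PDIA6 from -0.83 to 0.24 (without control 2), XBP1 from -0.15 (without control 2) to 0.40, DNAJB9 from -0.12 (without cadmium 1) to 0.21 and SDF2L1 from -0.079 (without control 3) to 0.23. The sign also turned for XBP1 without cadmium 1 (-0.039), DNAJB9 without control 2 (-0.053) and SDF2L1 without cadmium 2 (-0.013). The cause was not tested.

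Over all genes, edgeR and limma-voom each called 0 higher and 0 lower, with 1506 and 1423 genes at an unadjusted p below 0.05, against 119 higher and 106 lower in DESeq2. Leaving out each library gave from 9 to 2678 genes higher and from 5 to 3511 lower, with 0 to 5 of the 10 ER genes and 0 to 60 of the wider pathway called. The highest counts came without control 3 and the next, 1150 higher and 1161 lower, without control 2, which called 1 ER gene and 17 of the wider pathway. Some ER and pathway genes were picked by their results both without control 2 and without control 3. Of these, ATF3, AUP1 and RCN2 stood at 1.14, 0.36 and 0.35 without control 2. Without control 3 they stood at -0.95, -0.78 and -0.98. CALU, CNPY3, CREB3L1, CREB3L2, PDIA4, PPP1R15B and WFS1 kept their direction. Both fits share the cadmium libraries, so agreement in direction between them is partly built in. With upper-quartile factors 63.3% of 240 calls were higher, against 52.9% of 225. Of 110 list medians under alternatives, 9 moved by more than an offset between the controls. That offset was the size of the list's median log2 ratio of control 3 to control 2, divided by the square root of 2. It is not a measure of spread. No paired analysis was possible because only the number 2 is shared by control and cadmium columns, so a replicate block was not run.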

Other observations

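Pseudogenes of the ER genes were counted at low levels: HSP90B2P at 112 to 128 counts per library, HSP90B3P at 28 to 38, HSPA5P1 at 5 to 32, XBP1P1 at 4 to 13 and CALR4P at 0 to 6. These are small beside HSP90B1, HSPA5, XBP1 and CALR, whose lowest count in a library was 4188 (XBP1 in control 2), and reads that map equally to gene and copy were left out by the counting.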
